A study of Mus musculus with 20 samples.

Results

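Bone marrow-derived dendritic cells matured with lipopolysaccharide (LPS) were set against immature dendritic cells, in 4 of the 20 small RNA libraries of the series. The 4 libraries were chosen by their titles: LPS-treated wild type, LPS-treated miR-155 knockout, immature wild type and immature miR-155 knockout, with 1 library of each. The 16 other libraries hold dendritic cells given oxidised, enzymatically modified or native low-density lipoprotein and macrophages in the same conditions, all in both genotypes. Short sequence tags with their read counts were deposited, and 18 to 26 nt tags that matched an arm of an annotated mouse miRNA hairpin were counted, and levels are given as counts per 1000000 miRNA reads (CPM).

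The LPS-treated cells had received 200 ng/ml LPS overnight at day 8 to 9 of culture, and the immature cells no stimulus. Wild-type cells came from C57BL/6 mice and knockout cells from B6.Cg-Mir155tm1.1Rsky/J mice, which lack miR-155 in the whole animal. All mice were 8 to 12 weeks old, and all 4 cultures were grown from flushed bone marrow in medium with GM-CSF hybridoma supernatant. The labels do not say whether the libraries come from separate mice or cultures, so the p-values measure only a spread between libraries. That spread is how far the genotypes depart from parallel responses over all 20 libraries, macrophages and lipoprotein-treated cells included. The knockout and the wild-type pair are the only repeats of the LPS comparison.

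LPS is a component of the outer membrane of Gram-negative bacteria. It is sensed by Toll-like receptor 4 and turns immature dendritic cells, which sample antigen, into mature cells that present it. A miRNA is cut from an RNA hairpin by Drosha and Dicer, one arm is mostly kept on an Argonaute protein, and the bases just behind its 5′ end, the seed, pair with target mRNAs. The ends of the loaded RNA can be trimmed or extended, and a base added at the 3′ end that is not in the hairpin is called a tail.

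The mature sequences of 7 miRNAs described below are shown, chosen after their values were seen: the deleted miR-155-5p, 3 that rose and 3 that fell. They are from RefSeq (GRCm38.p6), with the seed (bases 2 to 8) in capitals, except that of miR-147-3p, which is the arm's most frequent deposited tag and is written with T.
miR-155-5p: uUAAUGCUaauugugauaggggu
miR-147-3p: gTGTGCGGaaatgcttctgcta
miR-129-5p: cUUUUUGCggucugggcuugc
miR-21a-3p: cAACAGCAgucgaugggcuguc
let-7c-1-3p: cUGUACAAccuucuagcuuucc
miR-181a-1-3p: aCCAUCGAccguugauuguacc
miR-223-3p: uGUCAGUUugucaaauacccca

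Among the seeds shared by miRNAs with unlike calls under LPS, members of 4 are printed, chosen after their values were seen, so that the identical seed can be seen beside the differing remainder.
miR-125a-5p: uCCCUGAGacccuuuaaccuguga
miR-125b-5p: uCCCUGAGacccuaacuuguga
miR-351-5p: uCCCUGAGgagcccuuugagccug
miR-221-3p: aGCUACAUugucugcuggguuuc
miR-222-3p: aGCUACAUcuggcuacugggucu
miR-27a-3p: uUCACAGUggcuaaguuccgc
miR-27b-3p: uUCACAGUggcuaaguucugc
miR-92b-3p: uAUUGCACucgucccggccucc
miR-92a-3p: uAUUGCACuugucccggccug
miR-25-3p: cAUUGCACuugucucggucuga

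LPS also moved the 3′ ends of many arms. For 4 of them deposited tags whose shares shifted are given, in lower case where the tag matches the hairpin and with a capital for an added base.
miR-27b-3p, short form: ttcacagtggctaagttctg
miR-27b-3p, longer by 1 base: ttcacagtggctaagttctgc
miR-27b-3p, with a tail: ttcacagtggctaagttctgcT
miR-423-3p, long form: agctcggtctgaggcccctcagt
miR-423-3p, short form: agctcggtctgaggcccct
miR-222-3p, long form: agctacatctggctactgggtctc
miR-222-3p, short form: agctacatctggctactgggtc
miR-298-5p, short form: ggcagaggagggctgttctt
miR-298-5p, long form: ggcagaggagggctgttcttccc

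The libraries held 13888791 and 17146942 reads in LPS-treated wild-type and knockout cells, against 12804807 and 14653213 in immature wild-type and knockout cells. In that order, 63.4% and 61.7% of reads were miRNA, against 53.9% and 57.0%, with 47.9% to 61.9% in the 6 lipoprotein-treated dendritic cell libraries. Of 1227 miRNA arms detected, 377 passed a minimum of 5 CPM in 2 libraries. Fitted changes are log2 differences of LPS over immature from edgeR's quasi-likelihood test with trimmed-mean (TMM) scaling and Benjamini-Hochberg adjustment over all 377. Scaling to the total of miRNA reads instead lowers these values by 0.44 in the median, so a fitted change is relative to the bulk of miRNAs.

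The deleted miRNA was read first. miR-155-5p, which is induced by Toll-like receptor signals in myeloid cells, had 84426 reads in LPS-treated wild-type cells and 6 in LPS-treated knockout cells, against 892 in immature wild-type and 4 in immature knockout cells. Its level was 9590 CPM in LPS-treated wild-type cells, against 129 CPM in immature wild-type cells, a log2 difference of 6.20 within that pair. The few reads in the knockout libraries stood at 0.57 and 0.48 CPM, close to the 0.28 and 0.36 CPM that 3 reads are worth there. The fit over both pairs gave 6.28 ± 1.06 (SE; adjusted p = 0.00227), a value that rests on the wild-type pair alone: without the LPS-treated or the immature wild-type library it was 1.64 or 2.38 and was not called. The other strand, miR-155-3p, had 440 and 0 reads under LPS, against 9 and 0 reads in immature cells, and without the LPS-treated wild-type library its fitted value was -0.58.

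Of the 377 miRNAs, 38 rose (10.1%) and 44 fell (11.7%) under LPS at an adjusted p under 0.05, 21.8% in all. Leaving out the LPS-treated wild-type library left 52 called, and leaving out the immature wild-type library 53. By a rule on size, 15 miRNAs are named in each direction, and 17 of these 30 were called without any 1 of the 4 libraries. The most abundant miRNA, miR-21a-5p, a widely expressed miRNA raised in inflammation, made up 29.7% and 31.2% of miRNA reads under LPS, against 27.8% and 22.4% in immature cells.

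**Figure D1:**
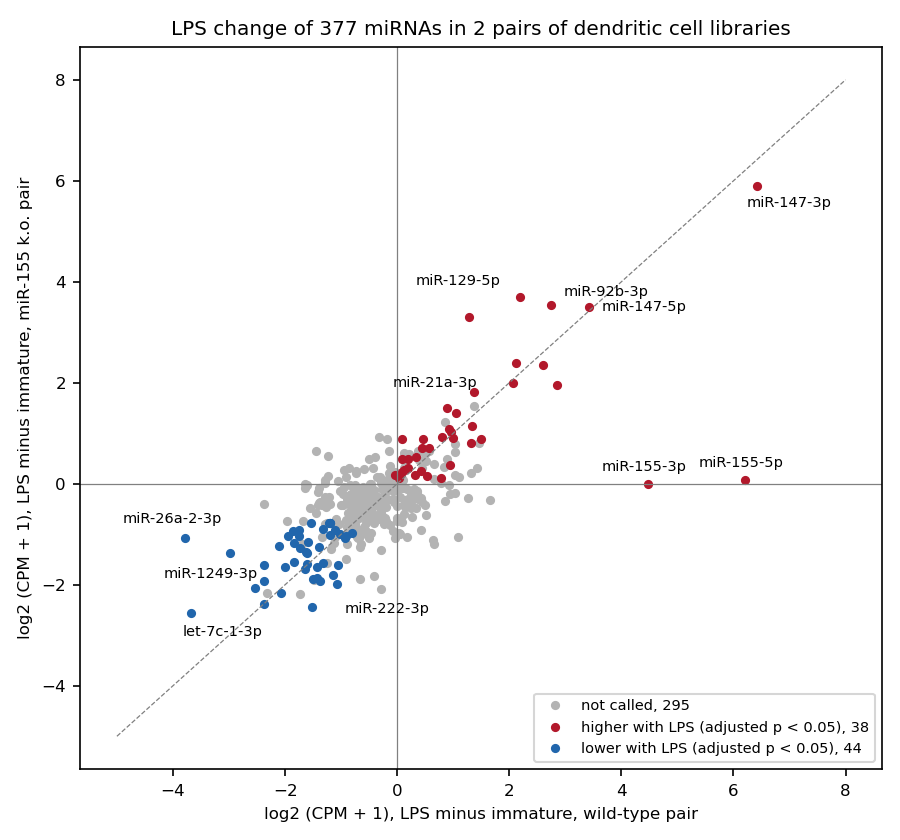
LPS minus immature log2 difference of each of the 377 miRNAs in the knockout pair (y axis) against the wild-type pair (x axis), from CPM with 1 added, with miRNAs called higher or lower by the fit in colour. miR-147-3p lies far from 0 on both axes, while miR-155-5p lies at 6.20 in the wild-type pair and near 0 in the knockout pair.

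miR-147-3p had the largest fitted change that was repeated in both genotypes. It is known as a miRNA induced by Toll-like receptor signals in mouse macrophages, and its hairpin lies at chr2:122640803-122640881 on the plus strand (GRCm38), in an exon of AA467197. It stood at 283 CPM in wild-type and 266 CPM in knockout cells with LPS, against 2.32 and 3.47 CPM in immature cells, a fitted change of 6.96 ± 0.34 (adjusted p = 1.1e-09). The other arm, miR-147-5p, had 43.8 and 28.0 CPM with LPS, against 3.19 and 1.56 CPM in immature cells (4.38 ± 0.21). Both LPS libraries were far above both immature libraries for either arm.

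miR-21a-3p, the lesser strand of the hairpin in the last exon of Vmp1 that gives miR-21a-5p, rose to 10107 and 9387 CPM under LPS, against 2410 and 2361 CPM in immature cells (2.48 ± 0.31). The fitted change of miR-21a-5p itself was 0.72 ± 0.19, and its call was lost without the LPS-treated wild-type library (0.69), the LPS-treated knockout library (0.75) or the immature knockout library (0.57). With scaling to total miRNA reads it was 0.28.

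Among miRNAs of low level, miR-92b-3p had 31.9 and 23.3 CPM with LPS, against 3.91 and 1.08 CPM in immature cells (4.16 ± 0.57, adjusted p = 1.22e-04). miR-129-5p, best known from the nervous system, had 26.1 and 38.4 CPM with LPS, against 4.93 and 2.04 CPM in immature cells (3.77 ± 0.58). miR-1945 had 27.2 and 31.2 CPM with LPS, against 3.63 and 5.27 CPM in immature cells (3.18 ± 0.42). The groups did not overlap for any of these 3, but they were named for the size of their change, so this adds no support. With 2 against 2 libraries a permutation test can reach no p below 0.333. All 3 stayed under 40 CPM. miR-31-5p also rose (3.29 ± 0.72), but the call was lost without the LPS-treated knockout library (2.44) or the immature wild-type library (2.71).

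miR-210-3p, the miRNA most closely tied to hypoxia-inducible factor, rose to 1038 and 1229 CPM under LPS, against 561 and 433 CPM in immature cells (1.64 ± 0.29, adjusted p = 0.00108). Its partner miR-210-5p had 79.2 and 68.5 CPM with LPS, against 29.9 and 18.7 CPM in immature cells (2.09 ± 0.49). The call of miR-210-5p was lost without the LPS-treated knockout library (1.79), the immature wild-type library (1.99) or the immature knockout library (2.20). miR-7a-5p also rose, to 2067 and 2564 CPM with LPS, against 733 and 1379 CPM in immature cells (1.61 ± 0.26).

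Of the miRNAs that fell, let-7c-1-3p had the largest fitted change. This passenger strand of a let-7c hairpin, in an intron of Mir99ahg on chromosome 16, had 4.88 and 7.94 CPM with LPS, against 74.7 and 51.6 CPM in immature cells (-2.88 ± 0.38, adjusted p = 1.41e-04). The guide strand let-7c-5p stood at 32521 and 31279 CPM with LPS, against 27573 and 41484 CPM in immature cells (0.34 ± 0.23, not called). miR-181a-1-3p, also a passenger strand, fell to 145 and 168 CPM with LPS, against 585 and 526 CPM in immature cells (-1.40 ± 0.15, adjusted p = 1.11e-05). Its guide, miR-181a-5p, which tunes receptor signalling in lymphocytes, was not called (0.24 ± 0.13).

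miR-223-3p, the abundant miRNA of granulocytes and their precursors, fell to 1364 and 1288 CPM with LPS, against 3609 and 3076 CPM in immature cells (-0.89 ± 0.13, adjusted p = 1.31e-04). Fewer cells of a type and less RNA per cell cannot be told apart in such bulk libraries. miR-1249-3p fell to 9.43 and 22.7 CPM, against 81.5 and 60 CPM (-1.80 ± 0.29), and miR-700-3p to 5.79 and 5.67 CPM, against 34.2 and 24.2 CPM (-1.88 ± 0.30), LPS-treated cells against immature cells in both cases. miR-582-3p differed between genotypes as well as with LPS, with 10.7 CPM in wild-type and 61.8 CPM in knockout cells under LPS, against 32.0 and 233 CPM in immature cells (-1.34 ± 0.20). The reads of miR-1843b-3p (-2.02 ± 0.39) could not be assigned to a miRNA alone, since 98.9% of them also matched another class of small RNA. The same holds for 100% of the reads of miR-3068-5p, which was also called lower (-1.01).

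**Figure D2:**
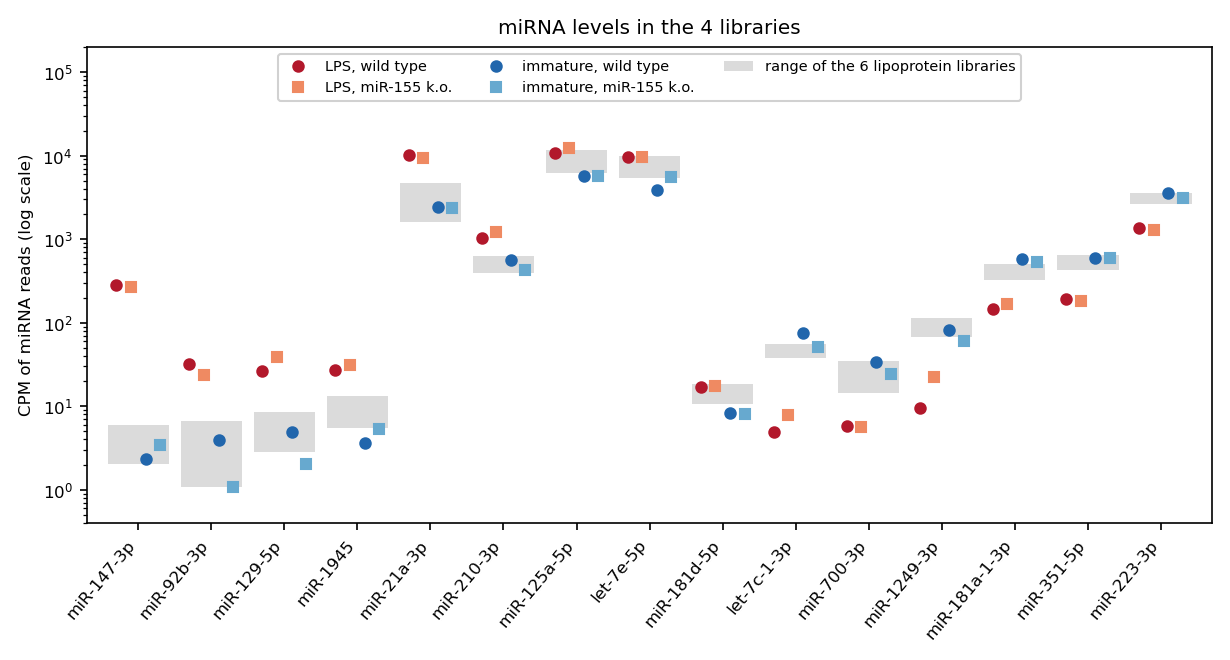
CPM of miRNA reads (y axis, log scale) of 15 miRNAs (x axis) in each of the 4 libraries, with LPS-treated cells left of immature cells and grey bars for the range of the 6 lipoprotein-treated dendritic cell libraries. miR-147-3p, miR-21a-3p and miR-210-3p are higher in both LPS libraries than in both immature libraries, and let-7c-1-3p, miR-181a-1-3p and miR-223-3p are lower.

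Named groups of miRNAs were read against all 377, of which 38 rose and 44 fell with a median fitted change of -0.03. Of 26 tested miRNAs known to be induced in inflammation, 15 rose, 1 fell and 10 were not called, with a median of 0.86. This list was chosen with these data known, and 5 of the 15 come from a single cluster, that of let-7e, miR-99b and miR-125a. In that cluster, in Spaca6 on chromosome 17, 5 of 6 arms rose: let-7e-5p to 9739 and 9716 CPM with LPS, against 3927 and 5550 CPM in immature cells (1.47 ± 0.21), and miR-125a-5p to 10840 and 12201 CPM, against 5703 and 5715 CPM (1.45 ± 0.20). miR-99b-5p lost its call without the immature wild-type library (0.56), and miR-99b-3p without the LPS-treated (0.64) or the immature (0.85) knockout library. With scaling to total miRNA reads neither miR-99b-5p (0.21) nor miR-99b-3p (0.52) was called. The cluster summed to 45670 and 47810 CPM with LPS, against 32590 and 32470 CPM in immature cells and 41630 to 58170 CPM in lipoprotein-treated dendritic cells. In the related miR-99a, let-7c and miR-125b cluster none of 8 arms rose and 1, let-7c-1-3p, fell.

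miR-146a-5p, a brake on Toll-like receptor signalling, had 11227 and 10944 CPM with LPS, against 10226 and 11621 CPM in immature cells, and was not called (0.45 ± 0.19, adjusted p = 0.112). miR-146b-5p, which shares its seed, rose to 10915 and 20785 CPM with LPS, against 9524 and 14883 CPM in immature cells (0.78 ± 0.14). Its wild-type LPS library lay below its knockout immature library, so the groups overlapped and only the differences within genotype point one way.

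Of 9 let-7 guide strands, 2 rose and 7 were not called, with a median of 0.46, and let-7i-5p lost its call with scaling to total miRNA reads (0.34). Of 16 arms of the miR-17-92 cluster and its paralogs, which are linked to proliferation, none rose and 4 fell, with a median of -0.23. The 4 were miR-92a-1-5p, miR-93-5p, miR-93-3p and miR-25-5p, and each lost its call without at least 1 of the 4 libraries. Without the LPS-treated knockout library none of the 4 was called (-1.60, -0.35, -0.88 and -2.20, in the same order). Without the LPS-treated wild-type library miR-92a-1-5p (-1.17) and miR-25-5p (-2.22) were not called, without the immature wild-type library miR-92a-1-5p (-1.11), and without the immature knockout library miR-92a-1-5p (-1.62), miR-93-5p (-0.33) and miR-25-5p (-1.93). Of 11 arms of the miR-30 family 1 rose and 3 fell, among them the passenger strands miR-30a-3p, with 43.3 and 76.6 CPM under LPS, against 146 and 185.5 CPM in immature cells (-1.07 ± 0.16), and miR-30e-3p, with 409 and 481 CPM, against 1242 and 1067 CPM (-0.94 ± 0.15). Of 5 tested miRNAs linked to lipid handling 1 fell, miR-33-5p, a regulator of cholesterol export (-1.21), a call lost without either LPS library (-1.30 and -1.11 without the wild-type and the knockout one) or without the immature wild-type library (-1.06). The miR-29 family and the miRNAs linked to p53 had 0 called of 6 and of 2. Of 12 tested miRNAs of myeloid differentiation 1 rose (miR-503-5p) and 1 fell (miR-223-3p), with a median of 0.04. Of 8 arms of the miR-181 family 1 rose, miR-181d-5p, with 17.04 and 17.67 CPM under LPS, against 8.26 and 8.15 CPM in immature cells (1.52 ± 0.22), and 1 fell.

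Markers of other cell types were read from lists. The 4 miRNAs of red cell precursors summed to 1235 and 1467 CPM with LPS, against 1504 and 1783 CPM in immature cells, and neither of the 2 tested was called. One of them, miR-451a, stood at 0.45 and 0.38 CPM with LPS, against 6.23 and 5.15 CPM in immature cells (adjusted p = 0.0579). Those of mast cells and granulocytes, mostly miR-223-3p, summed to 1485 and 1398 CPM with LPS, against 3802 and 3340 CPM in immature cells and 2812 to 3756 CPM in lipoprotein-treated cells, and 1 of the 2 tested, miR-223-3p, fell. The 6 detected miRNAs of stromal cells summed to 285 CPM in wild-type and 86.2 CPM in knockout cells with LPS, against 132 and 31.0 CPM in immature cells, and neither of the 2 tested was called. Of 6 tested epithelial miRNAs, 3 rose (miR-200c-3p, miR-141-3p and miR-203-3p), while the list summed to 254 and 182 CPM with LPS, against 260 and 179 CPM in immature cells, and miR-205-5p was at 0 in all 4. Each of these 3 calls was lost without the LPS-treated wild-type library (0.42, 0.28 and 1.74) or the immature wild-type library (0.79, 1.05 and 1.47). Without the immature knockout library miR-200c-3p (0.64) and miR-141-3p (0.92) were not called, and without the LPS-treated knockout library miR-203-3p (1.71). Calls of miR-200c-3p and miR-141-3p were also lost with scaling to total miRNA reads (0.27 and 0.53) or upper-quartile scaling (0.62 and 0.89), but that of miR-203-3p was not. The miRNAs of lymphoid cells summed to 8.29 and 10.96 CPM with LPS, against 24.2 and 17.01 CPM in immature cells, with none called. Of 3 tested neural miRNAs miR-9-5p rose (1.5 ± 0.37), a call lost without the LPS-treated wild-type library (0.95) or the immature knockout library (1.20), and miR-124a was at 0. Markers of muscle and of liver stayed at or under 1.04 CPM, with miR-133a and miR-122-3p at 0. The part of such cells in the results was not tested.

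Of 7 shared seeds with unlike calls among their members, the 4 whose sequences are printed above are described here, and let-7, miR-181 and miR-146 were given above. The differences between members were not tested. Of the 3 miRNAs with the seed CCCUGAG, miR-125a-5p rose, miR-125b-5p was not called (-0.05 ± 0.20), and miR-351-5p fell to 190 and 183 CPM with LPS, against 595 and 593 CPM in immature cells (-1.24 ± 0.27, adjusted p = 0.00374). Summed over the seed, the level was 11853 and 13315 CPM with LPS, against 7451 and 7622 CPM in immature cells. miR-125a-5p made up most of that sum in all 4 libraries.

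miR-221-3p and miR-222-3p, known repressors of Kit and of the cell cycle inhibitor p27, share the seed GCUACAU and come from neighbouring hairpins on the X chromosome (chrX:19146294-19146388 and chrX:19146893-19146971, minus strand, GRCm38). miR-222-3p fell to 14600 and 10349 CPM with LPS, against 30836 and 40750 CPM in immature cells (-1.07 ± 0.25, adjusted p = 0.0067), while miR-221-3p stood at 12852 and 13608 CPM, against 10457 and 14631 CPM (0.53 ± 0.20, adjusted p = 0.0653). The call of miR-222-3p was lost without the LPS-treated knockout library (-0.67) or the immature knockout library (-0.81). The seed sum was 27452 and 23957 CPM with LPS, against 41293 and 55381 CPM in immature cells.

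miR-27b-3p rose to 61602 and 53312 CPM with LPS, against 48761 and 36684 CPM in immature cells (0.88 ± 0.15), and miR-27a-3p, with the same seed UCACAGU, stood at 3248 and 3400 CPM, against 5550 and 4978 CPM (-0.23 ± 0.16, not called). In the family with the seed AUUGCAC, miR-92b-3p rose as given above and miR-92a-3p (0.38 ± 0.20) and miR-25-3p (-0.26 ± 0.12) were not called. miR-92b-3p had at most 31.9 CPM in the 4 libraries, so that the family sum of 32603 and 29728 CPM with LPS, against 41010 and 35058 CPM in immature cells, held almost none of it.

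The hairpins of miR-322, miR-503 and miR-351 lie within about a kilobase on the minus strand of the X chromosome (chrX:53054255-53054349, chrX:53053984-53054054 and chrX:53053255-53053353, GRCm38). miR-503-5p, known for slowing the cell cycle in differentiating cells, rose to 145 and 128 CPM with LPS, against 82.8 and 66.7 CPM in immature cells (1.31 ± 0.19, adjusted p = 1.31e-04). miR-322-5p, with 59.8 and 51.8 CPM, against 96.1 and 84.0 CPM, was not called (-0.25 ± 0.19, adjusted p = 0.405), and miR-351-5p fell. 3 neighbouring hairpins thus had fitted changes on both sides of 0.

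The lipoprotein-treated dendritic cells gave a second set of stimulated libraries. Against the mean of the 3 lipoprotein conditions, 48 miRNAs were higher (12.7%) and 45 lower (11.9%) in LPS-treated cells, 24.7% in all, and without the LPS-treated wild-type library the total was 43. In both LPS libraries 27 miRNAs (7.16%) lay above all 8 other dendritic cell libraries and 97 (25.7%) below them, counted on CPM, which lie lower in LPS libraries than the TMM-scaled values behind the calls. miR-147-3p was again furthest up (6.45 ± 0.21) and let-7c-1-3p furthest down (-2.62). miR-210-3p was 1.53 higher with LPS than with lipoproteins, which stood 0.11 above immature cells, and miR-222-3p was 1.40 lower, with lipoproteins 0.34 above immature cells. miR-99b-5p differed little between LPS and lipoproteins (-0.05, adjusted p = 0.817), and the lipoprotein-treated cells were themselves 0.69 above immature cells (adjusted p = 0.0148). These comparisons share the LPS libraries or the immature libraries.

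Macrophages of the same series, grown with M-CSF, were also given LPS, at a dose and time that the labels do not state. The LPS effect in dendritic cells exceeded that in macrophages for 18 miRNAs (4.77%) and fell below it for 27 (7.16%), by a test of the difference itself. Without the LPS-treated wild-type library of the dendritic cells the total of 45 (11.9%) became 29, and without the immature wild-type one 23. The effect on miR-147-3p was 6.96 in dendritic cells and 1.47 in macrophages, a difference of 5.49. In the miR-99b cluster, let-7e-5p and miR-125a-5p moved in opposite directions in the cell types. The effect on let-7e-5p was 1.47 in dendritic cells and -1.07 in macrophages (adjusted p = 0.00154 there), and on miR-125a-5p 1.45 and -0.71 (adjusted p = 0.0204 there). Macrophage values of the cluster's other arms are not given here. miR-99a-3p showed the largest opposite difference, with -0.13 in dendritic cells and 5.47 in macrophages.

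The response to LPS was then compared between knockout and wild-type cells. With 4 residual degrees of freedom, edgeR called 0 of 377 miRNAs (0.0%) at an adjusted p under 0.05, and 24 (6.37%) had an unadjusted p under 0.05. All 4 come from the macrophage libraries, since this fit has as many dendritic cell terms as dendritic cell libraries. No spread between dendritic cell libraries enters the test, so the 0 calls do not show equal responses. miR-155-5p is deleted in the knockout, and its response there was 0.08 on the log2 scale, against 6.20 in wild-type cells. The test of this known difference gave -6.17 ± 2.63 with an unadjusted p of 0.0486 and an adjusted p of 0.756, with 6 and 4 reads in the knockout libraries. The fit gives knockout and wild-type macrophages a shared response to each stimulus, also for this deleted miRNA. What that does to its p-value was not tested.

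The balance between the arms of a hairpin was measured as the log2 ratio of 5p to 3p reads in 75 hairpins, tested with limma. The ratio rose in 7 hairpins (9.33%) and fell in 6 (8.0%). Among the 6 is Mir3068, whose reads on both arms all also matched another class of small RNA. The calls numbered 4 without the LPS-treated wild-type library, 7 without the immature wild-type library and 7 without the immature knockout library. Mir147 and Mir511 kept their calls without any 1 of the 4 libraries.

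For Mir147 the ratio was -2.69 and -3.25 with LPS, against 0.45 and -1.13 in immature cells, a change of -2.63 ± 0.41 (adjusted p = 0.00163). The immature values rest on few reads, 22 and 13 for the 5p arm and 16 and 29 for the 3p arm. Mir511 lies in an intron of Mrc1, the mannose receptor gene, at chr2:14261003-14261081 on the plus strand (GRCm38). Its ratio was 0.04 and 0.02 with LPS, against -1.25 and -1.12 in immature cells, and between -1.09 and -0.49 in the lipoprotein-treated cells (1.22 ± 0.24, adjusted p = 0.00464). The 2 arms of Mir511 were thus near equal with LPS only among the dendritic cell libraries, as miR-511-5p rose (1.02, adjusted p = 7.39e-04) and miR-511-3p was not called (-0.21).

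For Mir21a the ratio was 4.88 and 5.06 with LPS, against 6.85 and 6.57 in immature cells (-1.74 ± 0.33, adjusted p = 0.00464), so that the 3p arm took a larger share of the hairpin's reads. The call was lost without the LPS-treated wild-type library (-1.47). Mir27b moved in the same direction, with -8.92 and -8.74 under LPS, against -7.67 and -7.35 in immature cells (-1.32), a call lost without the LPS-treated wild-type library (-1.19) or the immature knockout library (-1.10). Mir877, which is spliced from an intron of Abcf1, had 4.45 and 4.76 with LPS, against 3.08 and 3.55 in immature cells (1.29), and lost its call without each of the 4 libraries in turn (1.22 to 1.37).

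**Figure D3:**
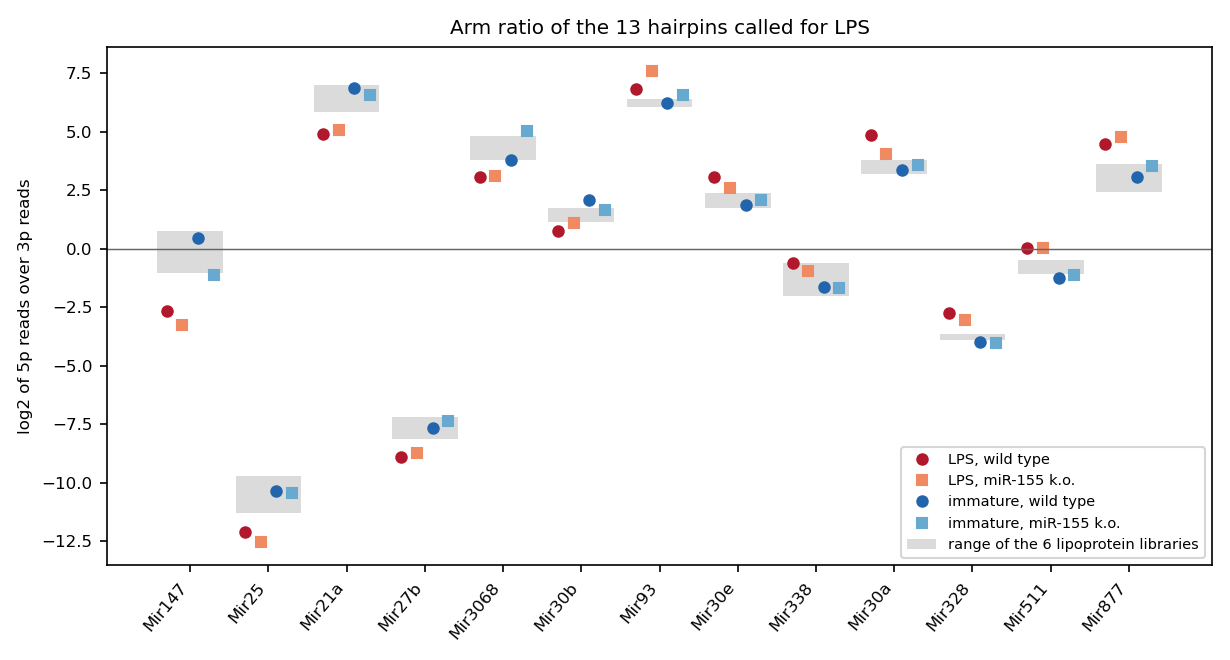
Log2 ratio of 5p to 3p reads (y axis) of the 13 hairpins with called changes (x axis), with 1 point per library, LPS-treated cells left of immature cells, and grey bars for the range of the 6 lipoprotein-treated dendritic cell libraries. Mir511 lies near 0 with LPS and below -1 in immature cells, and Mir147 below -2 with LPS.

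The 5′ end fixes the seed, and it moved in few arms. Of 140 arms, the share of reads starting off the arm's most used 5′ end over all 20 libraries rose in 2 (1.43%) and fell in 4 (2.86%). The total of 6 became 0 without the LPS-treated wild-type library, 1 without the immature wild-type library and 0 without the immature knockout library. In miR-21a-3p the off-site share was 5.48% and 6.44% with LPS, against 11.4% and 12.6% in immature cells and 10.1% to 11.3% in lipoprotein-treated cells (-1.11 ± 0.14 on the log2 odds scale, adjusted p = 0.00291). In miR-423-3p it was 23.8% and 22.1% with LPS, against 14.9% and 13.5% in immature cells (0.84 ± 0.14, adjusted p = 0.0111). In neither arm did the groups overlap, which with 2 libraries against 2 adds little to the fit. The call of miR-21a-3p was lost without the LPS-treated wild-type library (-1.0) or the immature knockout library (-1.05), and that of miR-423-3p without these (0.79 and 0.77) or the immature wild-type library (0.92).

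Changes of the 3′ end were called in far more arms. It was measured as a mean position and not as odds, so the counts for the ends are not on a like scale, and their difference was not tested. The mean templated 3′ end of 140 arms, in nt from the end used most often over all 20 libraries, was shorter with LPS in 67 (47.9%) and longer in 2 (1.43%) at an adjusted p under 0.05 in limma, with a median change of -0.086 nt. The end was shorter in 106 arms in the wild-type pair (median -0.078 nt) and in 113 arms in the knockout pair (median -0.094 nt). In 67 arms both LPS libraries lay below all 8 other dendritic cell libraries (47.9%), and in 4 above them (2.86%). The calls numbered 55 to 58 without each of the 4 libraries in turn. Most shifts were small: 12 of the called arms moved by 0.5 nt or more and 10 by 0.1 nt or less. Among the arms called shorter, all reads of miR-3068-5p and miR-1843a-5p also matched another class of small RNA.

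miR-298-5p, from the imprinted Gnas region of chromosome 2, ended on average at -2.84 and -2.96 nt with LPS, against -1.66 and -1.66 nt in immature cells (-1.24 ± 0.07 nt, adjusted p = 4.25e-07). Its short form printed above made up 36.2% and 36.5% of the arm's reads with LPS, against 13.7% and 12.2% in immature cells, and its long form 5.71% and 4.87%, against 18.4% and 21.1%. The long form was thus the commoner in immature cells and the short form in LPS-treated cells.

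miR-423-3p, from an intron of Nsrp1, ended at -1.35 and -1.40 nt with LPS, against -0.27 and -0.25 nt in immature cells (-1.12 ± 0.04 nt). Its long form made up 41.5% and 41.7% of reads with LPS, against 62.5% and 61.5% in immature cells. Among reads matching the hairpin, those that ended 4 bases before the most used end took 27.2% and 27.5% with LPS, against 3.90% and 3.22% in immature cells and 4.89% to 7.76% in lipoprotein-treated cells. The ends 2 and 3 bases inside the arm each held under 3% of reads in all 4 libraries, so the shift was mostly to 1 particular inner end. Reads that ended 1 base inside also rose, to 6.33% and 5.55% with LPS, against 3.61% and 2.63% in immature cells. Those that ended 5 or more bases inside took 1.97% and 2.46% with LPS, against 0.224% and 0.219%.

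In miR-27b-3p the short form made up 85.1% and 84.6% of reads with LPS, against 58.6% and 60.9% in immature cells. The form longer by 1 base took 4.11% and 4.51%, against 25.2% and 21.8%, and the tailed form 3.84% and 3.79%, against 7.45% and 7.81%. Lipoprotein-treated cells lay between, with 65.9% to 68.9% for the short form. In miR-222-3p the short form, 2 bases inside the long one, held 5.37% and 6.74% of reads with LPS, against 1.04% and 0.93% in immature cells.

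**Figure D4:**
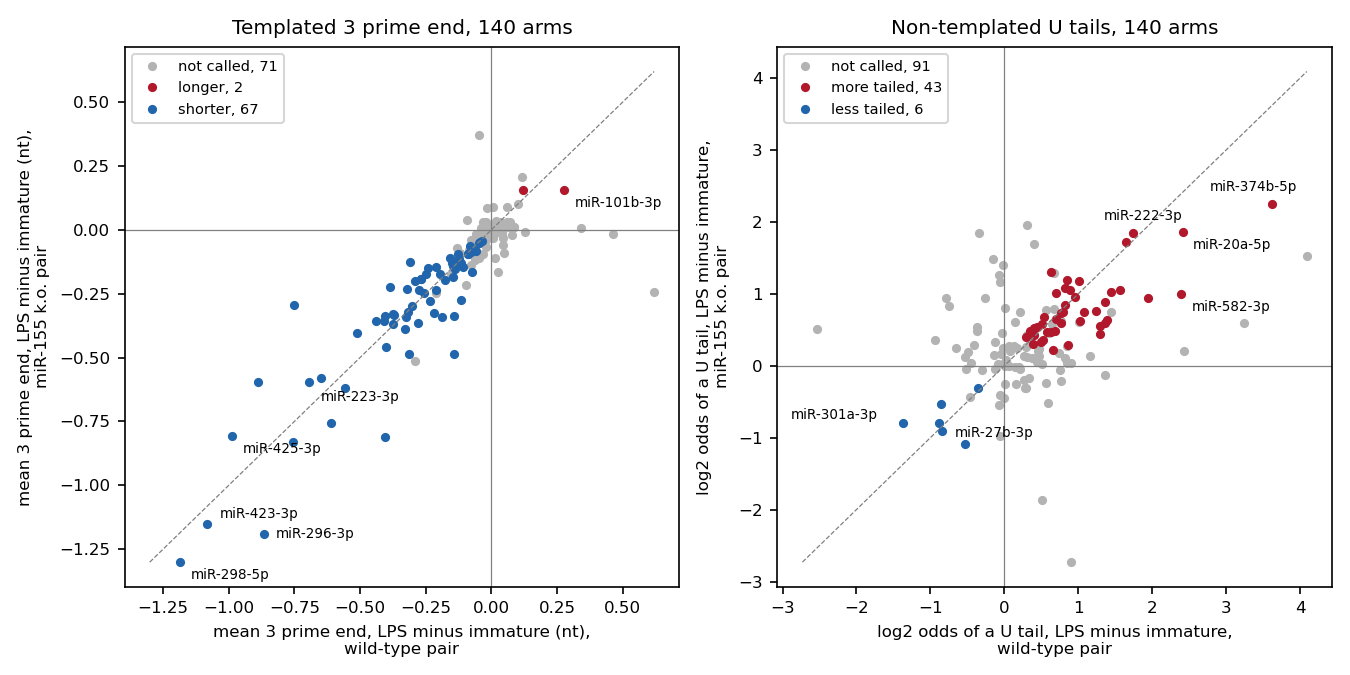
LPS minus immature difference of the mean templated 3′ end (left panel, nt) and of the log2 odds of a U tail (right panel) in the knockout pair (y axes) against the wild-type pair (x axes) for 140 arms, with called arms in colour. On the left 67 called arms lie below 0 and 2 above it, with miR-298-5p and miR-423-3p beyond -1 nt in both pairs, and on the right 43 called arms lie above 0 and 6 below it.

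By the base at the most used end, 23 of 33 arms ending in C shortened (median -0.32 nt), 34 of 67 ending in U (median -0.07 nt), 6 of 25 ending in G and 4 of 15 ending in A. Of arms on the 3p side 32 of 57 shortened, and of those on the 5p side 35 of 83. The mean length of all miRNA reads was 22.14 and 22.12 nt with LPS, against 22.20 and 22.19 nt in immature cells. No test was made between these classes of arms.

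Against the lipoprotein-treated cells, 60 arms (42.9%) were shorter with LPS and 4 longer (2.86%). In macrophages LPS shortened 74 of the same 140 arms (52.9%) and lengthened 1 (0.714%), with a median change of -0.135 nt. miR-423-3p moved by -1.0 nt there and miR-298-5p by -1.27 nt. The LPS effect differed between the cell types in 13 arms, being lower in dendritic cells in 5 (3.57%) and higher in 8 (5.71%). miR-182-5p was among the 5, with a difference of -0.68 nt (adjusted p = 3.86e-05), and miR-582-3p had a difference of -0.60 nt (adjusted p = 0.0207).

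**Figure D5:**
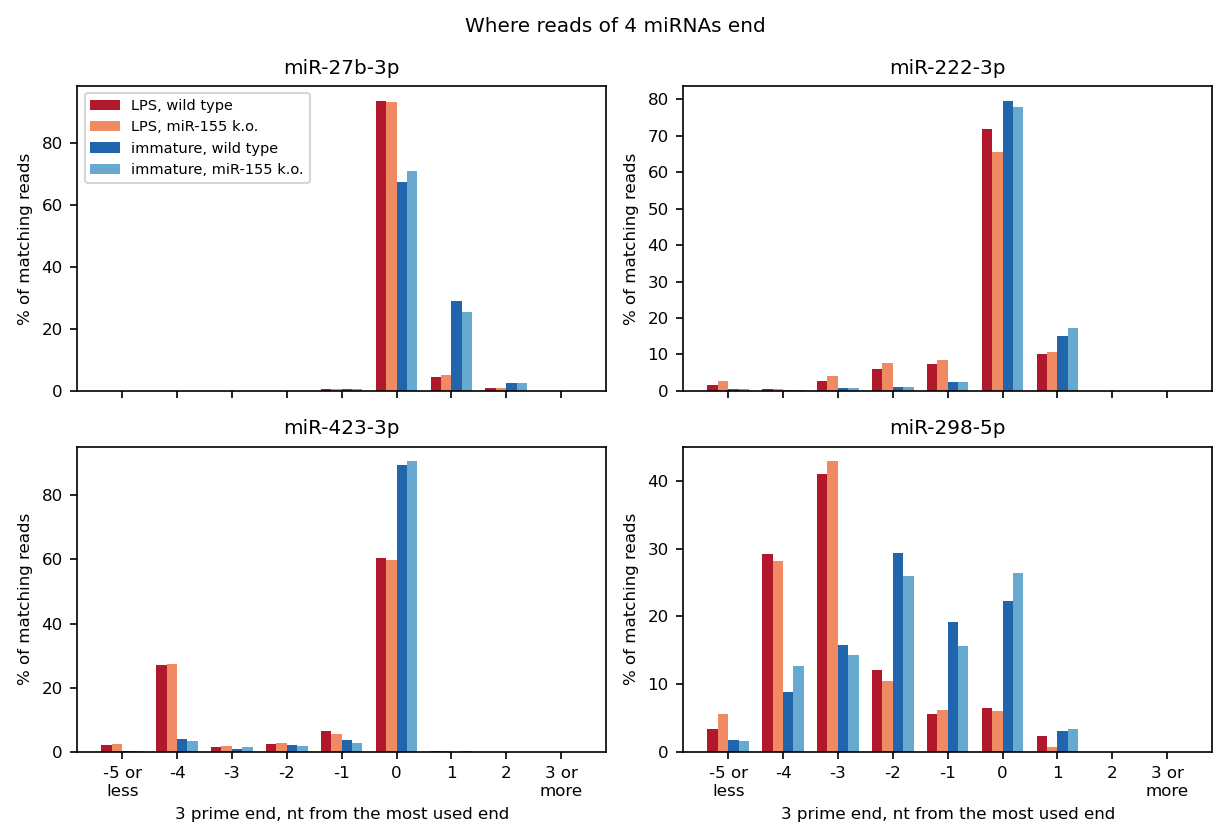
Share of an arm's reads that match the hairpin (y axes, percent) by 3′ end position in nt from the most used end (x axes), for 4 arms with called shifts, in LPS-treated and immature cells of both genotypes. In miR-423-3p the end at -4 nt holds 27.2% and 27.5% of reads with LPS and under 4% in immature cells, and in miR-27b-3p the end at 1 nt holds 4.55% and 5.01% with LPS and 29.2% and 25.6% in immature cells.

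Tails of uridine, read as T, are added to miRNAs and their precursors by terminal uridylyl transferases. The share of an arm's reads with such a tail rose in 43 of 140 arms (30.7%) and fell in 6 (4.29%), with a median change of 0.37 on the log2 odds scale. The 43 include miR-1839-5p, whose reads that match the hairpin all also matched another class of small RNA. The U-tailed share was higher with LPS in 102 arms in the wild-type pair and in 108 in the knockout pair. The total of 49 became 25 without the LPS-treated wild-type library, 18 without the immature wild-type library and 24 without the immature knockout library. Over all miRNA reads, however, U tails made up 4.01% and 3.78% with LPS, against 4.32% and 4.13% in immature cells. Without miR-21a-5p they made up 5.53% and 5.31% with LPS, against 5.81% and 5.20% in immature cells, where the groups overlapped.

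In miR-222-3p the U-tailed share was 2.54% and 3.02% with LPS, against 0.78% and 0.86% in immature cells and 0.88% to 0.97% in lipoprotein-treated cells (1.79 ± 0.18, adjusted p = 2.69e-04). In miR-107-3p, from an intron of Pank1, it was 30.9% and 28.4% with LPS, against 14.1% and 16.2% in immature cells (1.24 ± 0.21). miR-532-5p had 3.19% and 2.76% with LPS, against 1.10% and 1.35% in immature cells (1.30 ± 0.17). miR-222-3p kept its call without any 1 of the 4 libraries. For miR-107-3p and miR-532-5p this was not examined.

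The share fell in miR-27b-3p, to 5.77% and 5.77% with LPS, against 9.90% and 10.3% in immature cells (-0.88 ± 0.09, adjusted p = 2.69e-04). It also fell in miR-23b-3p, from the neighbouring hairpin, to 42.8% and 41.6%, against 57.9% and 55.2% (-0.84 ± 0.13, adjusted p = 0.00163). In miR-101a-3p it was 14.5% and 17.9% with LPS, against 23.6% and 24.1% in immature cells (-0.70). Reads with a tail that matches the next base of the hairpin count as templated, so a change of the templated end can move the measured share of tails.

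Against the lipoprotein-treated cells U tails were higher with LPS in 33 arms (23.6%) and lower in 7 (5.0%). In macrophages LPS raised them in 9 of the 140 arms (6.43%) and lowered them in 5 (3.57%). The difference between the LPS effects in dendritic cells and macrophages was called by limma in 0 arms (0.0%) and had an unadjusted p under 0.05 in 26.

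Tails of the other bases gave few calls. Tails of C rose in 1 arm (0.714%) and tails of G in 3 (2.14%), with none lower. Adenosine tails fell in 3 arms (2.14%) and rose in none, among them miR-210-3p, with 1.07% and 0.93% with LPS, against 2.35% and 2.55% in immature cells (-1.31), and let-7e-5p, with 4.13% and 3.78%, against 5.51% and 5.57% (-0.51). These calls were lost without each of the 4 libraries in turn, with -1.49 to -1.14 for miR-210-3p and -0.60 to -0.42 for let-7e-5p. Cytidine tails took 1.78% and 1.47% of all miRNA reads with LPS, against 0.81% and 0.69% in immature cells. Most of it came from miR-21a-5p, without which the shares were 0.33% and 0.23% with LPS, against 0.24% and 0.22%. Its form with 1 added C held 5.23% and 4.20% of the arm's reads with LPS, against 2.23% and 2.26% in immature cells, and the test of the share did not call it (1.04 ± 0.30, adjusted p = 0.168).

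Other small RNAs were counted over 482 genes, of which 3 rose and 3 fell (0.622% each). Without the immature wild-type library 3 were called. Rny1, the Y RNA bound by the Ro60 protein, gave 459 and 343 reads per 1000000 reads of all kinds (RPM) with LPS, against 78.7 and 107 in immature cells (2.57 ± 0.36, adjusted p = 2.92e-06). Its most frequent tag, of 26 nt, had 2120 and 1799 reads with LPS, against 144 and 229 in immature cells. Rny3, the other Y RNA tested, had 37.7 and 33.9 RPM with LPS, against 41.5 and 46.7 in immature cells (0.13 ± 0.37, not called). Fitted changes of these genes use TMM scaling of their own reads, while RPM are shares of reads of all kinds. The direction can therefore differ, as for Rny3. Scaling to the total reads of these genes instead lowers the fitted values by 0.55 in the median.

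Vaultrc5, the RNA of the vault particle, gave 564 and 655 RPM with LPS, against 188 and 270 in immature cells (1.87 ± 0.29, adjusted p = 2.68e-05). Snora44, a guide for pseudouridylation, had 48.0 and 65.8 with LPS, against 21.95 and 26.7 in immature cells (1.64 ± 0.37), a call lost without the immature wild-type library (1.69), without the immature knockout library (1.60) or with scaling to total reads (1.08). Snord45c, a guide for ribose methylation, fell to 18.9 and 28.4 RPM with LPS, against 76.5 and 147 in immature cells (-1.80), a call lost without the LPS-treated wild-type library (-1.63) or the immature knockout library (-1.35). The calls of the 2 other genes that fell, the snoRNA genes Gm26247 (-1.99) and Gm24494 (-1.62), were lost without the LPS-treated wild-type library (-1.73 and -1.56) or the immature wild-type library (-1.65 and -1.64). That of Gm24494 was also lost without the LPS-treated knockout library (-1.58) or the immature knockout library (-1.61).

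By class, Y RNA fragments made up 0.0497% and 0.0377% of all reads with LPS, against 0.0120% and 0.0154% in immature cells and 0.0102% to 0.0158% in lipoprotein-treated cells. Fragments of mRNA made up 1.84% and 2.23% with LPS, against 3.03% and 3.01%, and fragments of nuclear rRNA 2.17% and 2.10%, against 1.68% and 1.49%. Sequences matched to no class were 18.4% and 19.9% of reads with LPS, against 26% and 23.9% in immature cells. Fragments of nuclear tRNA and of the long rRNA precursor were not analysed here and, where present, are part of that unmatched share.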

How the data were processed

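Small RNA libraries were made from total RNA with TruSeq adapters, per the labels' protocols, and the base calls came from CASAVA 1.8.2, per the submitters' processing notes. The deposited files give whole-number counts per distinct sequence tag of 18 to 45 nt. How the authors trimmed or filtered reads is not given in the sources used here. Tags of 18 to 26 nt were matched exactly to GENCODE M21 hairpins (GRCm38), the arms placed from RefSeq or by RNAfold 2.7.2, with up to 3 added bases kept apart as tails. All 20 libraries entered one fit per measure, with a term for each genotype of each cell type and one for each stimulus of each cell type (8 residual degrees of freedom), using edgeR 4.0.16 for counts and limma 3.58.1 for ratios and ends (0.5 reads added). Arm ratios needed 50 mean reads and 5 in each library, ends and tails 500 and 50. miRNAs were named by size among those called with at least 50 mean reads in the 4 libraries, up to 15 each way. On simulated counts for 377 miRNAs, 16 of 30 changes of 1 and 27 of 30 of 2 on the log2 scale were called, and 1 of 317 unchanged miRNAs. The simulated libraries shared the same mean profile apart from these changes, without the real differences of cell type and genotype. The rate of false calls in the real libraries was not tested. PCR copies were not marked, so a floor of 3 reads covers counting error only. Members and lists were chosen with earlier results of these data known.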

Additional observations from a re-analysis of the deposited data

Results flagged for a closer look

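The response to LPS differed between dendritic cells and macrophages for 12 named miRNAs, by edgeR's test of the difference itself. The difference, dendritic cells minus macrophages on the log2 scale, was 5.49 for miR-147-3p, 3.76 for miR-147-5p, 2.77 for miR-99b-3p, 2.54 for let-7e-5p, 2.34 for miR-21a-3p and 2.15 for miR-125a-5p. It was -5.60 for miR-99a-3p, -3.01 for miR-26a-2-3p, -2.79 for miR-1843b-3p, -2.16 for miR-1249-3p, -2.09 for miR-149-5p and -1.78 for miR-183-5p. For miR-26a-2-3p the difference was not called without the LPS-treated (-2.04) or the immature (-2.38) wild-type dendritic cell library. The mean 3′ end responded to LPS differently in 13 arms, with a higher value in dendritic cells in 8 and a lower one in 5.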

How the results depend on the processing

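The 82 miRNA calls under LPS became 149 with scaling to total miRNA reads (26 higher, 123 lower) and stayed 82 with upper-quartile scaling (33 higher, 49 lower). With size factors they were 93, with DESeq2 106, and with the 10 dendritic cell libraries alone 97 (54 higher, 43 lower). Scaling to totals also gave 129 calls against lipoproteins (28 higher, 101 lower), 92 for the difference from macrophages (13 higher, 79 lower) and 44 for other small RNA genes (2 higher, 42 lower). Arm ratio calls were 8 with at least 100 reads per library. With the dendritic cell libraries alone, 5′ end calls were 3 and A tail calls 0. Leaving out each of the 4 libraries gave 52 to 65 miRNA calls, 43 to 92 against lipoproteins, 23 to 39 for the difference from macrophages, 4 to 9 for arm ratios, 0 to 5 for 5′ ends, 0 to 1 for A tails, 18 to 34 for U tails, 55 to 58 for 3′ ends and 3 to 6 for other genes. No leave-one-out value of the genotype difference could be estimated. Without each library in turn, miR-155-3p had -0.575 to 5.79 and, against lipoproteins, miR-155-5p had -0.087 to 4.95. Among called values followed in this way only these 2 changed sign, both without the LPS-treated wild-type library. The uncalled LPS change of miR-10a-5p (-0.119) reached 0.012. The causes were not tested.

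The pairing by genotype was tried on the 4 libraries alone, where 70 miRNAs were called with genotype as the replicate block and 49 with no block.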
